A study of Arabidopsis thaliana with 6 samples.

Results

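The double line PRE1-Ox/IBH1-Ox was set against wild-type Col-0 plants over the 1547 genes that the authors' first table lists as different between IBH1-Ox and wild type, out of 33518 genes in their second table. The comparison used 4 of the 6 samples of the series, 2 libraries per group, and the 2 IBH1-Ox libraries served as the bridge between the tables. All groups were Arabidopsis thaliana seedlings of ecotype Col-0, taken whole and grown for 5 days in constant light on a diluted MS medium, and total RNA went into TruSeq libraries. Wild type, called Col below, carried no transgene by its label. IBH1-Ox carried 35S:IBH1-myc, and the double line carried a construct of the same name, 35S:IBH1-myc, together with 35S:PRE1-YFP, so the double line overexpresses IBH1 as well. The 35S promoter drives a gene in most tissues, so neither transgene follows the gene's own pattern, and the labels do not say how many independent lines were used. Nothing in the labels says that the 2 libraries of a group came from separate cultures, so their spread may be technical.

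IBH1 is an atypical basic helix-loop-helix (bHLH) protein that does not bind DNA and is known to restrain cell elongation. It binds DNA-binding bHLH factors such as HBI1 and keeps them from their target genes, which include genes that loosen the cell wall. PRE1, which lacks a DNA-binding region as well, binds IBH1 in turn and is known to release those factors, downstream of brassinosteroid, gibberellin, temperature and light. Typical bHLH factors bind 6-base sequences of the form CANNTG, of which CACGTG is the best known.

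The tables were normalised separately by their authors, so a double-line value was first multiplied by 1.12, the median ratio of the IBH1-Ox means of the same genes in the 2 tables, and that ratio ran only from 1.1174 to 1.1176. All levels below are normalised reads on the scale of the first table. Of each pair of values, the library with the larger size factor comes first, since the means do not tell which numbered sample is which. Because Col and the double line stand in separate tables, no test was run between them, and an exact permutation test of 2 against 2 libraries could not go below p = 0.333. The authors' deposited tables test IBH1-Ox against Col and the double line against IBH1-Ox, and p-values below come from them alone. Over the listed genes the libraries held 1151302 and 783116 reads in Col, 754370 and 654671 in IBH1-Ox, and 618180 and 522812 in the double line. Over genes with at least 200 reads, the spread between a group's libraries, as the SD of their log2 ratio, was 0.19 in Col (969 genes), 0.19 in IBH1-Ox (909 genes) and 0.15 in the double line (667 genes). Markers of green tissue and root were high in the double line, and the 5 flower markers, which a seedling should lack, were all below 10, with AP1 and AG at 0. In whole seedlings, fewer cells of a type and less RNA per cell cannot be told apart.

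A gene within 1.5-fold of Col in the double line was called returned. A gene still more than 1.5-fold away on the side of IBH1-Ox was called residual, and a gene more than 1.5-fold away on the opposite side was called overshooting. Of 1544 classed genes, 768 (49.7%) were at least 1.5-fold from Col in the double line. By class, 776 (50.3%) were returned, 632 (40.9%) residual and 136 (8.81%) overshooting. The 3 remaining genes had 3 reads or fewer in both groups. The double line was at least 1.5-fold above Col at 366 genes (23.7%) and at least 1.5-fold below at 402 (26%), and without the scaling of the second table these became 282 and 495, since every log2 ratio to Col then drops by 0.16. A further subset of 86 residual genes (5.57%) lay beyond IBH1-Ox by another 1.5-fold, away from Col. These classes are descriptions: the genes were listed because Col and IBH1-Ox differ, so the Col mean took part in choosing them.

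Genes listed as lower in IBH1-Ox had a median log2 ratio to Col of -1.02 in IBH1-Ox, against -0.48 in the double line (quartiles -1.15 and -0.01, 750 genes). Among them 358 (47.7%) were returned, 329 (43.9%) residual and 63 (8.4%) overshooting. Genes listed as higher had a median of 0.92 in IBH1-Ox, against 0.38 in the double line (quartiles -0.03 and 0.87, 797 genes), with 418 (52.6%) returned, 303 (38.2%) residual and 73 (9.19%) overshooting. The libraries of Col and of the double line did not overlap at 1267 of the 1544 genes with recovered single libraries (82.1%). These included 623 of the 632 residual, 135 of the 136 overshooting and 509 of the 776 returned genes. Residual and overshooting genes were picked by their distance from Col, so their counts follow largely from that choice. Next to the limit, PTR3 lay 1.496-fold above Col and counted as returned, while ABCG22 lay 1.501-fold above and did not. The authors' test between the double line and IBH1-Ox called 22.5% of all 24451 genes with a p-value, 12.7% as higher and 9.78% as lower, and 56% of the 1547 listed ones. Of the 632 residual genes it called 178, so that 454 were not called different between the double line and IBH1-Ox. It called all 136 overshooting genes, which lie on opposite sides of Col in the 2 lines by definition. Of the 86 genes beyond IBH1-Ox, also picked by their distance from IBH1-Ox, it called 59. For both sets the calls partly follow from the choice of genes.

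**Figure D1:**
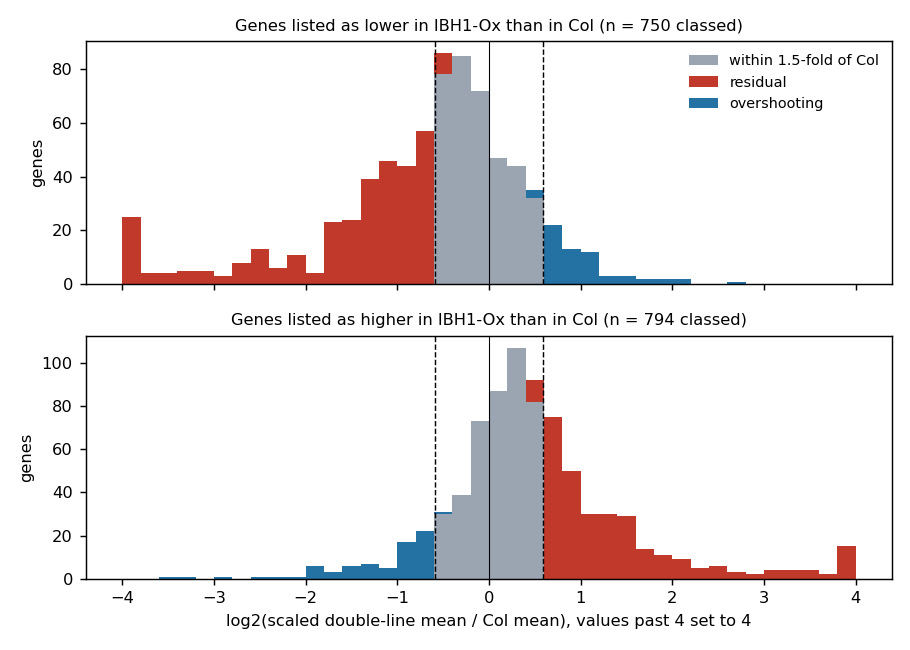
Histograms of the log2 ratio of the scaled double-line mean to the Col mean, for genes listed as lower (top) and higher (bottom) in IBH1-Ox, with the number of genes on the vertical axis and dashed lines at 1.5-fold. Both distributions peak near 0 with a long tail on the side of IBH1-Ox, and the 63 and 73 overshooting genes form the short tail on the other side.

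The transgenes behaved as the genotypes say. IBH1 was at 179 and 138 normalised reads in Col, 11790 and 12997 in IBH1-Ox, and 18485 and 18465 in the double line. The double line thus kept IBH1 at 117 times Col and stood above both IBH1-Ox libraries, a rise with an adjusted p of 3.96e-08 in the authors' deposited table. PRE1 was at 66.7 and 56.4 in Col, 140 and 151 in IBH1-Ox, and 9460 and 9325 in the double line, 153 times Col. Reads of a transgene and of the plant's own copy cannot be told apart here, and both genes fall in the residual class.

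The other helix-loop-helix genes split in direction. Without IBH1 and PRE1, 30 genes of the IBH1, PRE, BEE, PIF and PAR groups and their relatives were measured and 6 were listed, of which 1 was returned, 2 residual and 3 overshooting. The 3 overshooting members belong to the IBH1 group of atypical bHLH proteins that restrain elongation. IBL1 (IBH1-like) was at 151 and 157 in Col, 102 and 93.5 in IBH1-Ox, and 564 and 623 in the double line, 3.86 times Col. AIF1, known to bind PRE-type proteins, went from 344 and 303 in Col to 110 and 123 in IBH1-Ox and 801 and 892 in the double line, 2.62 times Col. AIF4 was at 379 and 360, then 210 and 188, then 534 and 638, or 1.59 times Col. In all 3 genes the double line lay above every Col library and every IBH1-Ox library. The authors' deposited table calls the rise over IBH1-Ox with adjusted p-values of 2.53e-62, 1.21e-94 and 2.6e-25. Overshooting genes were picked by such a rise or fall, and the same test calls 136 of 136 of them.

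PIF4 and PIF7, bHLH factors that promote elongation in warmth and shade, were residual on the low side. PIF4 was at 1164 and 1184 in Col, 673 and 667 in IBH1-Ox, and 125 and 126 in the double line, so that the double line held 10.7% of the Col level, less than IBH1-Ox held. PIF7 was at 639 and 568 in Col, 361 and 362 in IBH1-Ox, and 293 and 304 in the double line. The authors' deposited table calls the fall of PIF4 from IBH1-Ox to the double line (adjusted p = 9.49e-65) and does not call PIF7 (adjusted p = 0.128). PAR2, an atypical bHLH protein of the shade response, was returned at 1.16 times Col.

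**Figure D2:**
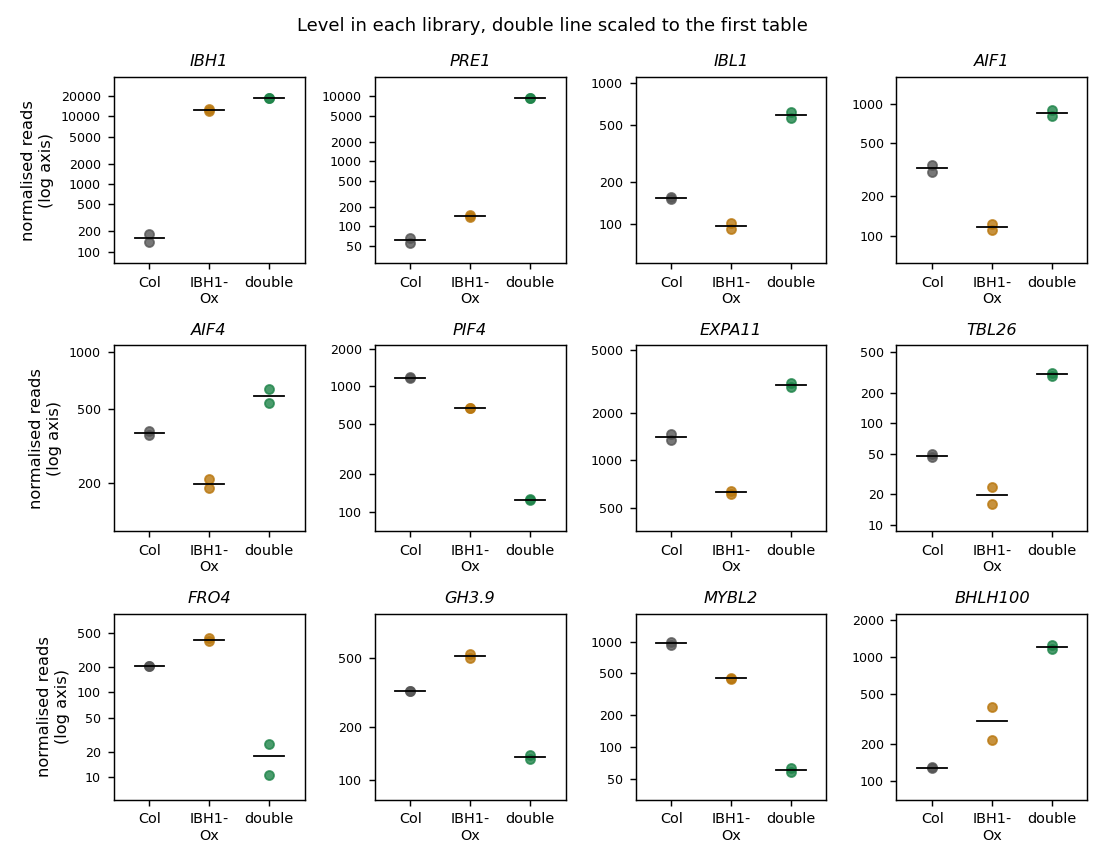
Normalised reads of 12 genes in each library of Col, IBH1-Ox and the double line on log axes, with points for the libraries and a bar for the mean of each group. IBL1, AIF1, AIF4, EXPA11 and TBL26 lie below Col in IBH1-Ox and above Col in the double line, FRO4 and GH3.9 do the opposite, and PIF4, MYBL2 and BHLH100 move further in the direction of IBH1-Ox.

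Among genes listed as lower, the overshooting ones with the largest distance from Col were TBL26, AT5G35525, AT4G26950, IBL1, CLE5 and MES10. TBL26, of a family of proteins that acetylate wall polymers, was at 50 and 46.2 in Col, 23.6 and 16 in IBH1-Ox, and 291 and 315 in the double line, 6.3 times Col. CLE5, which encodes a precursor of a small signalling peptide, was at 65.9 and 59.7, then 36.4 and 17.2, then 203 and 241, or 3.54 times Col. MES10, of the methyl esterase family, was at 252 and 262, then 106 and 113, then 866 and 846, or 3.33 times Col. In each of these genes the libraries of the 3 groups did not overlap. For Col and the double line this was a condition for naming genes by their distance from Col. The unnamed loci AT5G35525 and AT4G26950 lay 4.05 and 4.03 times above Col.

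Wall-loosening and growth-related genes appeared on the same side. EXPA11, an expansin, was at 1456 and 1339 in Col, 611 and 635 in IBH1-Ox, and 2928 and 3079 in the double line, 2.15 times Col. XTH7, an enzyme that cuts and rejoins xyloglucan, was at 5754 and 4776, then 2431 and 2465, then 9906 and 9423, or 1.84 times Col. GASA14, a gibberellin-regulated peptide, was at 805 and 821, then 540 and 496, then 2293 and 2569, or 2.99 times Col. These 3 are the only overshooting members of their lists, and the other members are given with those lists below.

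The promoters of 2 overshooting genes are shown because both hold CATGTG, a sequence of the CANNTG form, within the 250 bases before the annotated start of the gene. Capitals mark CATGTG or its reverse complement CACATG, and the sequences are from the RefSeq TAIR10.1 genome (chr4:14872268-14872517, minus strand, for IBL1, and chr1:6999840-7000089, minus strand, for EXPA11).
IBL1 promoter: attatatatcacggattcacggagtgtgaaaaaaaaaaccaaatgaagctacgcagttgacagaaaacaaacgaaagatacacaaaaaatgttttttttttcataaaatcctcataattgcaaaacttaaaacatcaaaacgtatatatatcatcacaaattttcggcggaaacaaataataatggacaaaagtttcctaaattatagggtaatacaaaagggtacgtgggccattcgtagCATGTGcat
EXPA11 promoter: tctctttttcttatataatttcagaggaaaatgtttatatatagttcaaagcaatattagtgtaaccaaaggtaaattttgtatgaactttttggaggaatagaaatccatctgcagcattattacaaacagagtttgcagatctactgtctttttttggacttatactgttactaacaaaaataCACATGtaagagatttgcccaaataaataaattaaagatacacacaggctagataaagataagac
The motif starts 9 bases before the gene in IBL1 and 65 bases before it in EXPA11. CATGTG on either strand was found in 11.1% of 27443 protein-coding promoters of this length, in 14.7% of 1480 promoters of listed genes, and in 26.2% of the 61 promoters of overshooting genes listed as lower (16 promoters). In residual genes listed as lower it was found in 15.3% of 307 promoters, in returned ones in 18.8% of 345, and in overshooting genes listed as higher in 5.88% of 68. CACGTG, which reads the same on both strands, was found in 6.49% of all promoters and 7.77% of those of listed genes. A match is a description of these letters and not of binding, and no test was run on the shares.

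Overshooting genes listed as higher in IBH1-Ox ended below Col. FRO4, a ferric reductase, was at 204 and 201 in Col, 394 and 434 in IBH1-Ox, and 24.7 and 10.5 in the double line, 8.7% of Col. Its neighbour in locus order and near copy FRO5 was at 9.52 and 9.02 in Col and 40.7 and 39.4 in IBH1-Ox, and no read was found in the double line, which puts it at least 3.22-fold below Col with a floor of 3 reads over the group. Reads may be split between such copies. AT1G80440, which encodes the Kelch repeat F-box protein KMD1, was at 1037 and 964, then 1636 and 1569, then 228 and 193, or 21% of Col.

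IGMT1, a methyltransferase of indole glucosinolates, was at 109 and 124 in Col, 174 and 214 in IBH1-Ox, and 38.8 and 18.9 in the double line, 24.8% of Col. The unnamed loci AT1G11070, AT4G36850 and AT3G15450 stood at 13%, 18.8% and 25.4% of Col. AT4G36850 had the widest swing of these, from 648 and 762 in Col up to 2489 and 2522 in IBH1-Ox and down to 127 and 139 in the double line.

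Of 75 measured auxin genes 8 were listed, 7 of them as higher, with 4 overshooting, 2 returned, 1 residual and 1 unclassed, where 9.19% of all genes listed as higher were overshooting. GH3.3 and GH3.9 are members of the family whose enzymes attach amino acids to plant hormones. GH3.3 was at 146 and 139 in Col, 363 and 377 in IBH1-Ox, and 74.1 and 69.3 in the double line, 50.4% of Col. GH3.9 was at 324 and 324, then 497 and 523, then 139 and 132, or 42% of Col. IAA29, an Aux/IAA repressor, was at 53.2 and 37.2, then 104 and 89.9, then 22.9 and 14.7, or 41.6% of Col. In these 3 genes the double line lay below every other library. The fourth, IAA34, had only 3 reads in the double line, and its ratio to Col of 0.643 has a 95% exact interval of 0.114 to 2.5 from counting alone. The residual member IAA20 rested on 3 Col reads, with a ratio of 6.91 (1.83 to 38.6). YUC3, a gene of auxin synthesis, was within the limit at 69% of Col, and so was IAA3 at 91.3%.

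Besides IBH1 and PRE1, several of the residual genes furthest from Col were nearly silent in Col or in both overexpressing lines. AT3G01345 was at 4210 and 4244 in Col, 17.1 and 22.2 in IBH1-Ox, and 17.6 and 23.1 in the double line. Both overexpressing lines thus held under 1% of Col (0.482% in the double line), and the authors' deposited table gives an adjusted p of 1 between them. AT3G47250 was at 1264 and 1226 in Col, 1.07 and 1.23 in IBH1-Ox, and 28.2 and 46.2 in the double line, 2.99% of Col. Its rise from IBH1-Ox to the double line has an adjusted p of 2.32e-12 in the authors' deposited table. AT3G43740 was at 367 and 361 in Col, 0 and 1.23 in IBH1-Ox, and 7.06 and 0 in the double line, so that its 0.97% of Col rests on 4 reads of 1 library. The pseudogene AT3G43690 stood at 2.4% of Col, and the pseudogene AT3G43715, with 3 reads in the double line, was 35.1-fold below Col (95% exact interval 11.8 to 171).

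The opposite pattern held at AT3G28320, with 2.38 and 0 normalised reads in Col, 897 and 828 in IBH1-Ox, and 1598 and 1624 in the double line. Its Col level rests on 3 reads, and the ratio of 1353 to Col has a 95% exact interval of 462 to 6569. AT3G28310 was at 2.38 and 3.38 in Col, 121 and 117 in IBH1-Ox, and 176 and 178 in the double line. The pseudogene AT3G43310 had 1 read in Col, and its ratio of 265 has an interval of 46.8 to 10527. AT1G68250 was at 1.59 and 5.64, then 292 and 149, then 75.8 and 60.9. All 4 genes were high in both overexpressing lines and near 0 in both Col libraries.

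Residual genes were unevenly placed along the chromosomes. Of the 138 residual genes at least 4-fold from Col, 57 (41.3%) lie on chromosome 3, which holds 19.8% of the genes with a mean of 10 or more and 23.3% of the listed ones. The locus ranges AT3G27 to AT3G30, AT3G42 to AT3G47 and AT5G46 were picked after their values were seen and hold 2.83% of the genes with a mean of 10 or more, but 27.5% of these 138. That mean is over the IBH1-Ox and double-line libraries, without Col, while listed genes were counted at any mean. Genes nearly silent in both lines can thus be listed without being among the genes of that mean. The shares compared here therefore rest on unlike sets of genes. AT3G27 to AT3G30 held 45 listed genes beside 189 genes of that mean (a ratio of 23.8%), and 32 of the 45 were residual. AT3G42 to AT3G47 held 76 beside 301 (25.2%) with 49 residual, and AT5G46 held 16 beside 74 (21.6%) with 10 residual. Outside these ranges the ratio was 7.25%, and 38.4% of the listed genes were residual, against 66.4% inside. Residual genes of the 3 ranges lay on both sides of Col, 59 lower and 32 higher. The authors' deposited table calls 17 of the 91 (18.7%) between the double line and IBH1-Ox, against 161 of the 539 residual genes outside (29.9%). Inside these ranges 6 of 137 listed genes were overshooting, against 130 of 1405 outside. The labels give ecotype Col-0 for all groups, and the files hold no genotype of single loci, so a difference that the transgenic lines carry at these loci and an effect of IBH1 overexpression cannot be told apart for these genes.

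The block of loci AT3G47 held 16 listed genes, of which 14 were residual and 9 at least 4-fold from Col. These neighbours, chosen after their values were seen, were not a family: they include PLC8, HSD2, CDF3 and ABCA8. PLC8 had a mean of 592 in Col, 9.82 in IBH1-Ox, against 26.9 in the double line, and HSD2 had 442, 3.99 and 18.3. CDF3, a regulator of flowering time, had 996, 459 and 192.

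**Figure D3:**
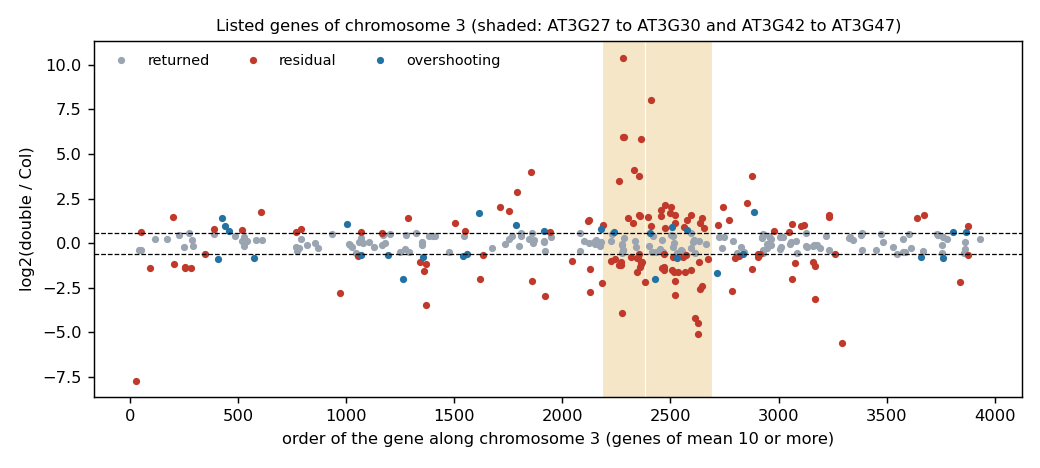
Log2 ratio of the double line to Col for the listed genes of chromosome 3, in gene order along the horizontal axis. Only genes with a mean of 10 or more over the IBH1-Ox and double-line libraries are drawn. Colours give the class, and dashed lines lie at 1.5-fold. Residual genes far from Col gather in the shaded ranges AT3G27 to AT3G30 and AT3G42 to AT3G47, on both sides of 0.

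Among all listed genes, 44 were at least 16-fold lower in IBH1-Ox than in Col. In the double line 39 of them were residual, 4 returned and 1 overshooting, where 43.9% of all genes listed as lower were residual. The authors' deposited table calls 23 of the 44 as higher in the double line than in IBH1-Ox. That is near the 56% called among all listed genes in either direction. The test shares the low IBH1-Ox mean by which these genes were picked. In the subset of 8 with a Col mean of at least 100 that lie in the chromosome 3 ranges, the double line held 0.97% to 6.7% of Col (median 4.34%). The overshooting gene was AT4G08110, an annotated pseudogene with a mean of 129 in Col, 0.615 in IBH1-Ox, against 369 in the double line. Of the 25 genes at least 16-fold higher in IBH1-Ox, 23 were residual and 2 unclassed, where 38.2% of all genes listed as higher were residual.

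The clock genes were the list with the most genes beyond IBH1-Ox. Of 22 measured clock genes 10 were listed: 9 were residual, 1 returned and none overshooting. Of the 9 residual genes, 7 were further from Col than IBH1-Ox by 1.5-fold or more. Among all classed genes 40.9% were residual and 5.57% lay beyond IBH1-Ox in this way. LNK4 was at 1167 and 1106 in Col, 474 and 533 in IBH1-Ox, and 108 and 73.5 in the double line, 7.96% of Col. PRR9, a pseudo-response regulator of the morning, was at 174 and 174, then 51.4 and 40.6, then 17.6 and 18.9, or 10.5% of Col. PRR7 was at 1877 and 1991, then 955 and 857, then 217 and 222, or 11.4% of Col. In these 3 genes the order Col, IBH1-Ox, double line held for every library. LNK3 and LNK1, coactivators in the same circuit, stood at 14.6% and 17.8% of Col, and GI at 39.2%.

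On the other side, RVE2 was at 1053 and 1023 in Col, 1973 and 1999 in IBH1-Ox, and 3750 and 3744 in the double line, 3.61 times Col. PRR3 was at 122 and 131, then 364 and 347, then 501 and 472, or 3.85 times Col. CHE, at 51.2% of Col, was about as low as in IBH1-Ox, and PRR5 was within the limit at 76.1%. The authors' deposited table calls 8 of the 10 between the double line and IBH1-Ox, among them PRR7 with an adjusted p of 2.2e-68 and RVE2 with 3.72e-36, but neither CHE (adjusted p = 0.847) nor PRR5 (adjusted p = 0.0953). Seedlings grew in constant light, and the labels give no time of harvest, so a difference in clock phase between samples was not tested.

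CACGTG was found in 4 of the 10 listed clock promoters and in 5 of the 12 that were measured but not listed. The promoters of PRR9 (chr2:19232357-19232606, plus strand) and LNK3 (chr3:3923265-3923514, plus strand) are shown because each holds 2 copies of CACGTG and 1 of CACATG, all in capitals, in the same genome.
PRR9 promoter: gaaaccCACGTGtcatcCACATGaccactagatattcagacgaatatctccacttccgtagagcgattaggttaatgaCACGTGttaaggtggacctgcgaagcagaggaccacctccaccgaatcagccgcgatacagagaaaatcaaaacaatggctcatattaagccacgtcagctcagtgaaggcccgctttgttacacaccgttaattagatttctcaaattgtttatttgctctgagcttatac
LNK3 promoter: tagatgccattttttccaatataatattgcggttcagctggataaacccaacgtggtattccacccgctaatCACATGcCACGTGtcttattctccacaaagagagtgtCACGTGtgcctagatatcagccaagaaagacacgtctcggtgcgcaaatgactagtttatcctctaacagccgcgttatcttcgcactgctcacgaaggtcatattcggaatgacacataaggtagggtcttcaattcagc
The matches lie between 244 and 172 bases before the start in PRR9 and between 178 and 141 bases before it in LNK3.

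The list of light genes, which joins photoreceptors, B-box proteins and other signalling genes with antenna, RuBisCO and ELIP genes, also held residual members beyond IBH1-Ox. Of 70 measured members 7 were listed, 5 residual and 2 returned, with 3 of the 5 further from Col than IBH1-Ox. BBX24 and BBX28, B-box proteins of light signalling, stood at 29.8% and 16% of Col. BBX24 was at 5126 and 5013 in Col, 2758 and 2992 in IBH1-Ox, and 1485 and 1534 in the double line. BBX7 stood at 3.34 times Col and BBX22 at 60.1%. The remaining residual member, LHCB4.3 of the photosystem II antenna, stood at 2.36 times Col.

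Other genes furthest beyond IBH1-Ox on the low side were AT3G55240, MYBL2, AT2G43140 and AT3G16670. MYBL2, a repressor of anthocyanin synthesis, was at 933 and 1004 in Col, 442 and 455 in IBH1-Ox, and 58.2 and 63 in the double line, 6.26% of Col. AT3G55240 was at 431 and 404, then 225 and 241, then 7.06 and 10.5, or 2.1% of Col. On the high side they were PRE1, BHLH100, AT1G13609 and MYB111. MYB111, an activator of flavonol synthesis, was at 25.4 and 36.1, then 48.2 and 73.8, then 189 and 136, or 5.29 times Col. A5GT, an anthocyanin glucosyltransferase, stood at 7.53 times Col, while FLS3 and FLS4 of the flavonol synthase family were returned at 1.1 and 1.44 times Col. The flavonoid list had 4 listed of 20 measured members.

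The small auxin-up RNAs, short-lived transcripts of a large family tied to cell elongation, were almost all residual. Of 71 measured members 16 were listed, 15 as lower. In the double line 14 of those 15 were still at least 1.5-fold below Col, where 43.9% of all genes listed as lower were residual. By their means, 4 of the 14 lay further from Col than IBH1-Ox by 1.5-fold or more. Of these 4, the authors' test between the double line and IBH1-Ox called only SAUR63. The median log2 ratio to Col over the 16 was -1.07 in IBH1-Ox, against -1.23 in the double line. SAUR16 was at 891 and 912 in Col, 413 and 469 in IBH1-Ox, and 450 and 470 in the double line. SAUR65 was at 96.8 and 89, then 54.6 and 35.7, then 30 and 27.3, or 30.8% of Col. SAUR61 was lowest at 15.1% of Col, on 3 reads in the double line, so that Col was 6.61-fold higher with a 95% exact interval of 2.12 to 33.2. The exceptions were SAUR57, within the limit at 1.49 times Col, and SAUR37, which was listed as higher.

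The authors' deposited table calls 1 of the 16 as higher and 1 as lower between the double line and IBH1-Ox, SAUR57 with an adjusted p of 1.01e-11 and SAUR63 with 0.0405. Among all listed genes it calls 56%. Several of these genes are near copies lying side by side (SAUR61 to SAUR68 on chromosome 1, SAUR20 to SAUR22 on chromosome 5), so the assignment of reads among them is uncertain.

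CATGTG was found in 12 of the 16 listed promoters of the family (75%), in 17 of the 55 that were measured but not listed (30.9%), and in 11.1% of all promoters. None of the 16 holds CACGTG. Near-identical neighbours share promoter letters, so the 16 are not independent. SAUR61 (chr1:10302100-10302349, minus strand) and SAUR26 (chr3:982807-983056, plus strand) are shown as examples with 3 and 2 matches, in capitals.
SAUR61 promoter: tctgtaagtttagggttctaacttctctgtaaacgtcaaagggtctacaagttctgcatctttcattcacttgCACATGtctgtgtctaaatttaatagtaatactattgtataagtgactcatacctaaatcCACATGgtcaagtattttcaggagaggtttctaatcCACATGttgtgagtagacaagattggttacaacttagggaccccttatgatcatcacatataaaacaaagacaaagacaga
SAUR26 promoter: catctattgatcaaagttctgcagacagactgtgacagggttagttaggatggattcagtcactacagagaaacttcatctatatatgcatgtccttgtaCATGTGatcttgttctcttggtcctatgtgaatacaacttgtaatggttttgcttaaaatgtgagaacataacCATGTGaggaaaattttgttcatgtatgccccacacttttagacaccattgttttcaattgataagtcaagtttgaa
SAUR26 was at 73.0 and 63.1 in Col, 45.0 and 33.2 in IBH1-Ox, and 26.5 and 25.2 in the double line, 37.9% of Col.

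Expansins, xyloglucan enzymes and cellulose synthases, which shape the wall, did not follow a single class. Of 28 measured expansins 7 were listed, with 3 returned, 3 residual and 1 overshooting. EXPA1 was at 6797 and 5911 in Col, 2192 and 2539 in IBH1-Ox, and 5209 and 5364 in the double line, 83.2% of Col, and EXPA8 was back at 98.6%. The residual expansins, EXPA2, EXPA7 and EXPA18, were all listed as higher. Of 32 measured XTH genes 8 were listed, with 2 returned, 5 residual on the high side and 1 overshooting. XTH11 stood at 4.01 times Col and XTH23 at 2.36 times. Of 40 measured members of the cellulose list, which joins the cellulose synthase superfamily with KOR1 and COB, 7 were listed, with 5 returned, and CSLB03 was furthest away at 5.63 times Col.

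At the 1.5-fold limit the root hair list was residual throughout, where 38.2% of all genes listed as higher were residual. All 5 listed genes of 14 measured, LRX1, EXPA7, EXPA18, PRP3 and RSL2, stood at 1.55 to 2.07 times Col. Only LRX1 would stay residual with a fold limit of 2. None was called between the double line and IBH1-Ox in the authors' deposited table, which calls 56% of all listed genes. LRX1, a wall protein of root hairs, was at 668 and 606 in Col, 1109 and 1036 in IBH1-Ox, and 1309 and 1335 in the double line. PRP3 and EXPA7 are also among the 5 root markers, whose sum on the scale of the second table was 3891 in IBH1-Ox, against 3503 in the double line. Without TIP2;3, itself an overshooting gene, the sums were 3129 and 3211. PRP3 alone was higher in the double line (1941 and 2161) and made up most of these sums. TIP2;3 (761 and 293), PIP2;4 (590 and 493), COBL9 (341 and 310) and EXPA7 (257 and 247) were lower. The part that the proportion of root in the seedlings played was not tested.

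Aquaporins and gibberellin genes were mixed. Of 33 measured aquaporins 5 were listed: 1 was returned, 3 were residual (TIP4;1, TIP2;2 and NIP6;1), and TIP2;3 was overshooting at 64.5% of Col. Of 29 measured gibberellin genes 7 were listed, with 3 returned, 3 residual and 1 overshooting. GASA4 and GASA1 stood at 2.07 and 1.87 times Col, GA20OX1 at 57.2%, and GAI, a DELLA repressor, was within the limit at 88.1%. The brassinosteroid list had 1 listed gene of 13, CYP90D1, at 1.04 times Col.

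Genes of aliphatic glucosinolate synthesis lay between their IBH1-Ox and Col levels in the double line. Of 32 measured members of the glucosinolate list 18 were listed, all as lower, with 9 returned and 9 residual, and all 18 were still below Col in the double line. Their median log2 ratio to Col was -1.83 in IBH1-Ox, against -0.69 in the double line. CYP79F1, which starts the core pathway from methionine derivatives, was at 992 and 848 in Col, 50.3 and 32 in IBH1-Ox, and 404 and 416 in the double line, 44.5% of Col. MAM1, of the chain elongation step, was at 2548 and 2470, then 543 and 409, then 1004 and 991, or 39.7% of Col. The activator MYB28 was back at 96% of Col, while its relatives MYB29 and MYB76 stood at 44.7% and 46%. The authors' deposited table calls 16 of the 18 as higher in the double line than in IBH1-Ox, where it calls 56% of all listed genes in either direction. The other two are MAM3, with an adjusted p of 0.388 from the authors' test across all genes, and BCAT4. The BCAT4 level was 1155 and 1028 in Col, 305 and 208 in IBH1-Ox, and 280 and 264 in the double line (adjusted p of 0.98 in the authors' deposited table).

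**Figure D4:**
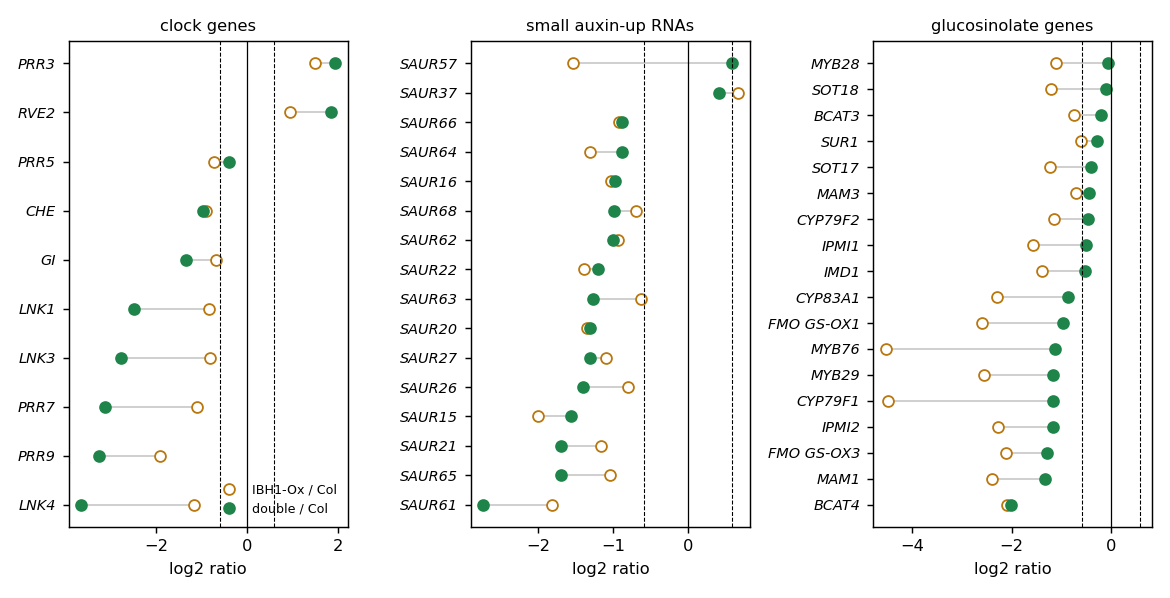
Log2 ratio to Col of IBH1-Ox (open circles) and of the double line (filled circles) for the listed clock, small auxin-up RNA and glucosinolate genes, with dashed lines at 1.5-fold. Both ratios share the Col libraries. Filled circles lie further from 0 than open ones for most clock genes, near them for most small auxin-up RNAs, and closer to 0 for 18 glucosinolate genes.

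Iron genes covered every class. Of 29 measured members 12 were listed, with 5 returned, 5 residual and 2 overshooting. IRT1, the root iron transporter, was at 2321 and 2330 in Col, 177 and 91.1 in IBH1-Ox, and 1811 and 1794 in the double line, 77.5% of Col. FRO2, the ferric reductase that works with it, was at 1183 and 1107, then 95.3 and 52.9, then 952 and 909, or 81.3% of Col. NAS1, of nicotianamine synthesis, was back at 95.2%, but NAS2 was at 340 and 256, then 7.49 and 7.38, then 138 and 151, or 48.4%. The ferritin gene FER1 and the reductase FRO7 stood at 44.8% and 43.7% of Col.

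The regulators BHLH100 and BHLH101, known to rise under iron shortage, were above Col. BHLH100 was at 128 and 130 in Col, 395 and 214 in IBH1-Ox, and 1155 and 1245 in the double line, 9.32 times Col, and BHLH101 stood at 5.18 times. The authors' deposited table calls the rise of BHLH100 from IBH1-Ox to the double line (adjusted p = 2.12e-11) and not that of BHLH101 (adjusted p = 0.701). The IBH1-Ox libraries differed between themselves at both genes, with BHLH101 at 269 and 122.

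Seed storage and glyoxylate genes were mostly above Col and below IBH1-Ox. Of 26 measured members 8 were listed, 7 as higher, with 5 residual and 3 returned. ICL, an enzyme of the glyoxylate cycle that turns stored oil into sugar, was at 250 and 239 in Col, 6348 and 6347 in IBH1-Ox, and 2025 and 1578 in the double line, 7.37 times Col. MLS, the partner enzyme, was at 149 and 180, then 2091 and 1948, then 626 and 615, or 3.77 times Col. PCK1 was back at 1.07 times Col. The authors' deposited table calls 4 of the 8 as lower and 1 as higher in the double line than in IBH1-Ox, near the 56% called among all listed genes. The seed storage genes PAP85 and SESA2 had few reads in Col. OLEO2, the member listed as lower, was at 350 and 318 in Col, 89.9 and 84.9 in IBH1-Ox, and 220 and 233 in the double line. Seed remains summed to 1437 in IBH1-Ox, against 655 in the double line over 7 markers on the scale of the second table, with none of the 7 at 0. CRA1, CRU3, SESA2, OLEO1 and PAP85 were lower in the double line, mainly CRU3 (605 and 79.6) and CRA1 (561 and 282). In contrast, OLEO2 (78.2 and 203) and SESA1 (0.958 and 12.7) were higher. The part that seed remains played in this list was not tested.

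At the 1.5-fold limit the cold and abscisic acid list was returned in full, 4 of 4 listed genes among 31 measured, where 50.3% of all classed genes were returned. LTI30, a dehydrin, was close to the limit at 68% of Col. In all 4 genes the libraries of Col and of the double line did not overlap. The same held at 1267 of 1544 listed genes (82.1%). Of 86 measured pathogen response genes 7 were listed: 5 were returned, among them PAD3 of camalexin synthesis at 1.04 times Col, WRKY52 was residual at 62.6% and CYP71A23 was overshooting at 31.7%. The stomatal list had 1 listed gene of 13, TMM, at 1.15 times Col.

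**Figure D5:**
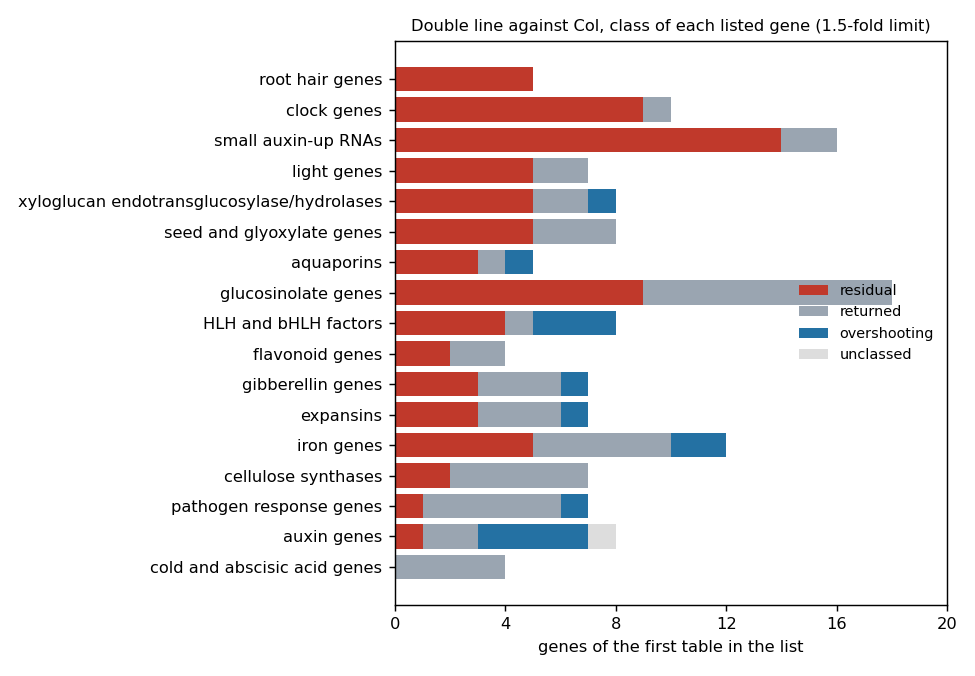
Number of genes of each list that the first table holds, coloured by class of the double line against Col at the 1.5-fold limit, for the lists with at least 4 listed genes. Root hair, clock and small auxin-up RNA genes are mostly residual, cold and abscisic acid genes are all returned, and auxin genes hold 4 overshooting members.

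Returned genes with the widest difference in IBH1-Ox and a double-line level within 0.2 of Col on the log2 scale were AGL62, PGAZAT, MIR156a, ORP4C, HEC1 and PEPC1. PGAZAT, a polygalacturonase, was at 33.3 and 20.3 in Col, 193 and 215 in IBH1-Ox, and 35.3 and 25.2 in the double line. HEC1, a bHLH factor outside the list, was at 67.5 and 68.8, then 256 and 277, then 67 and 56.7. ORP4C, of the oxysterol-binding family, was at 56.4 and 50.7, then 258 and 242, then 40.6 and 56.7. In these 3 genes the means of Col and the double line differed by less than the double-line libraries did, while IBH1-Ox stood apart. Both the closeness to Col and the distance of IBH1-Ox were conditions of the choice. AGL62, a MADS-box factor, and the microRNA gene MIR156a had fewer than 20 normalised reads in every Col and double-line library.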

How the data were processed

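Total RNA of whole seedlings was sequenced, 2 libraries in each of 3 groups. Per the submitters' processing notes the tools were TopHat and DESeq with the TAIR10 build; no version is named in the sources used here. Both tables hold values the authors deposited: per the file headers, group means of normalised read counts (a signal), their ratio as a fold, its log2, and a p-value with its adjusted value. Entries for reads assigned to no gene, 15.1% of the IBH1-Ox and 12.5% of the double-line signal, were left out, as was the log2 column of the second table, which holds spreadsheet errors.

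Each group mean was split into whole reads of 2 libraries (10 significant digits, relative tolerance 1e-10, 2e-09 below 100). At least 99.8% of the means split into exactly 1 pair, 3 listed genes were not split, and IBH1-Ox reads were equal in both tables for 1545 of 1545 genes. Over all genes the double-line libraries held 9506402 and 7979224 reads. Splitting and classing were tested on simulated data.

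The second table was multiplied by the median IBH1-Ox ratio over shared genes. A mean of 0 was set to 3 reads over the group, and genes with 3 reads or fewer in Col and the double line were not classed. Intervals are exact binomial (Clopper-Pearson, 95%) and cover counting error only. The members, the 19 gene lists and the classes were chosen with earlier results of these data known. Named genes were IBH1 and PRE1, the 6 furthest residual and overshooting genes each way, the 4 furthest beyond IBH1-Ox each way, the 6 widest returned genes, and, of each list, the 4 with the largest difference in IBH1-Ox and every residual or overshooting member. The furthest residual and overshooting genes and those beyond IBH1-Ox needed a mean of at least 50 in Col or the double line. Their Col and double-line libraries also had to be free of overlap. PAR2, SAUR37, IAA3, YUC3, GAI, PRR5, MYB28, NAS1, PCK1, OLEO2 and the genes of the locus blocks were named after their values were seen. Lists were matched by symbol or synonym in the RefSeq table, with 24 false matches dropped and 1 gene added; 1539 of 1547 loci had an entry there. Promoters are 250 bases before the gene start in RefSeq TAIR10.1. Python 3.11.15, numpy 2.4.6, pandas 2.3.3 and matplotlib were used. Alternatives were other scales, fold limits, filters on low means, a pseudocount, a stricter p-value and leaving out libraries.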

Additional observations from a re-analysis of the deposited data

How the results depend on the processing

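No paired analysis was possible because single libraries recovered from the means carry no replicate number, and no test joins the 2 tables. The counts of classed genes depended mostly on the fold limit. With a limit of 2 instead of 1.5, overshooting genes listed as lower numbered 25 and those listed as higher 33, genes beyond IBH1-Ox 31 and 12, residual genes listed as higher 168, and over all lists 81 members were returned and 9 overshooting, against 52 and 14. With a narrower limit, 0.32 on the log2 scale, the counts for genes listed as lower were 108 overshooting, 197 returned and 85 beyond IBH1-Ox, and for genes listed as higher 114, 251 and 64, while over all lists 26 members were returned and 22 overshooting. Without scaling, the median log2 ratios to Col were -0.64 for genes listed as lower and 0.22 for those listed as higher, and with a mean of at least 50 they were -0.39 and 0.35. Leaving out each Col or double-line library in turn gave -0.51 to -0.47 and 0.38 to 0.40. It gave 326 to 337 residual, 346 to 355 returned, 64 to 68 overshooting and 52 to 61 further genes among those listed as lower, and 293 to 323, 388 to 433, 68 to 83 and 32 to 33 among those listed as higher. Counting only genes whose libraries do not overlap, a choice made after seeing the data like that of classing every gene from its means, left 242 returned genes listed as higher. The other scales, the pseudocount of 1, the mean of at least 10 and the first-table adjusted p of 0.01 kept every class count within 1.5 times. YUC7, with 2 reads in Col and 2 in the double line, was the single named gene to change side of Col, at log2 ratios between -0.22 without the Col library of larger size factor and 0.90 without the double-line library of larger size factor. Depth limits the ratios that rest on 3 reads or fewer in Col or in the double line, whose counting intervals are given with them.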
